A study of Mus musculus with 9 samples.

Results

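The 9 genes described here carry the cystine, glutathione and Gpx4 arm of the defence against ferroptosis, a form of cell death driven by peroxidation of membrane lipids. They were taken by gene name, for their place in this pathway: Slc7a11 and Slc3a2 for cystine import, Gclc, Gclm and Gss for glutathione synthesis, Gsr for its reduction, Chac1 for its breakdown, and Gpx4 and Aifm2 for the removal of lipid peroxides and lipid radicals. All 9 were among the 10762 genes of the deposited table. Their messenger RNA was measured by sequencing in B16.SIY, a melanoma line from C57BL/6 mice in which the SIY model antigen is joined to dsRED. There were 3 groups of 3 libraries, all from stable lines made by lentiviral infection and selection with puromycin: a control line with Control shRNA, a line with Decr2 shRNA1 and a line with Decr2 shRNA2. Decr2 encodes a peroxisomal 2,4-dienoyl-CoA reductase of unsaturated fatty acid breakdown. The labels do not say whether a line was a clone or a pool, nor whether the replicates numbered 0, 1 and 2 were separate cultures, so the p-values speak only of spread among these libraries, part or all of which may be technical.

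Cystine enters the cell through system xc-, a pair of Slc7a11, which carries the transport, and Slc3a2, a heavy chain that brings this and other amino acid transporters to the plasma membrane. Inside the cell cystine is reduced to cysteine, which glutamate-cysteine ligase (Gclc, with its modifier Gclm) and glutathione synthetase (Gss) build into glutathione. Gpx4, a selenium enzyme, spends glutathione to reduce peroxides within phospholipids, and glutathione reductase (Gsr) restores it. Chac1 cleaves glutathione, and Aifm2 (FSP1) works beside Gpx4 by reducing coenzyme Q. Slc7a11 and Chac1 are known as targets of the stress transcription factor ATF4, and Slc7a11, Gclc, Gclm and Gsr as targets of NRF2.

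Decr2 itself was lower in every hairpin library, with log2 values between 3.71 and 4.10 in the controls, 2.51 and 3.18 with shRNA1, and 0.84 and 1.55 with shRNA2. It fell by 1.07 on the log2 scale with shRNA1 (SE 0.23, limma adjusted p = 0.0195; the call was lost in 3 of the 9 fits that each left out 1 library, those without control replicate 1, control replicate 2 or shRNA1 replicate 1, highest adjusted p = 0.0872) and was at -2.73 with shRNA2 (SE 0.23, adjusted p = 0.000568). The read depth is unknown, since the table gives log2 values scaled to a like total and no counts. Melanocyte lineage markers were all present (12 of 12, with mean log2 values from 4.37 to 12.80), and 5 of 41 markers from 5 lists of other cell types (immune cells, stroma, endothelium, epithelium, erythroid cells) were in the table (Lck, Col1a1, Pdgfrb, Postn and Plvap); none of these markers passed the test in any comparison (limma; 3 had an unadjusted p under 0.05 in at least 1 comparison). Libraries numbered 0 stood apart from those numbered 1 and 2 in each group, and results that rest on them are given with and without them. Whether a log2 value was divided by transcript length is not given, so levels are compared between libraries and not between genes.

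The promoter regions of Chac1, Slc7a11 and Gclm are shown because the first pair had the largest differences from control, and because all 3 hold a match to a motif of a stress factor tied to this pathway. RefSeq promoter windows (GRCm38.p6, around annotated start sites) were found for 7 of the 9 genes, in 10 windows. No window was found for Gclc or Gsr. Each stretch below runs 5′ to 3′ in the direction of the gene, from 250 to 21 bases before the start site. Capitals mark matches, on either strand, to TGATGNAA, the core of the C/EBP-ATF response element, or to TGACNNNGC, the core of the antioxidant response element that NRF2 binds.
Chac1: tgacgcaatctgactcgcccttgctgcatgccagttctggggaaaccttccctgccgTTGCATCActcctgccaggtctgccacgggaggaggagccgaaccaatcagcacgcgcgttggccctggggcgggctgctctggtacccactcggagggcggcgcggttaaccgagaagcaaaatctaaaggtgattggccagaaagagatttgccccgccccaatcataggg
Slc7a11: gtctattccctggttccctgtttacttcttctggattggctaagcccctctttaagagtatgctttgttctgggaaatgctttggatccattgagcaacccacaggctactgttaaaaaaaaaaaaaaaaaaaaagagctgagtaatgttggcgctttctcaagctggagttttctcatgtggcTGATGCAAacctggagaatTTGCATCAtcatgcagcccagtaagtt
Gclm: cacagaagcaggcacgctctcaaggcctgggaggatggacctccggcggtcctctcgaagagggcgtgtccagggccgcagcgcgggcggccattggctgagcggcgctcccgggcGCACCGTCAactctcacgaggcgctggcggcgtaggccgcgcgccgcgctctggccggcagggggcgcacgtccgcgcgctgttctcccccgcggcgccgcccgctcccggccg
The Chac1 stretch is chr2:119350992-119351221 on the plus strand, the Slc7a11 stretch chr3:50443634-50443863 on the minus strand and the Gclm stretch chr3:122245307-122245536 on the plus strand, and none overlaps an exon annotated in GENCODE M21. Slc7a11 held 2 matches to the C/EBP-ATF core on opposite strands, with their first bases 66 and 47 bases before the start. Chac1 held 1 match to this core, 193 bases before the start, and Gclm held 1 match to the antioxidant core, 134 bases before it. No matches of the 2 motifs overlapped. Neither motif was matched in the windows of Slc3a2, Gss, Gpx4 (4 windows) and Aifm2. The windows of Slc3a2 (chr19:8713848-8714147) and Aifm2 (chr10:61720399-61720698) lie inside the annotated genes, so the outermost annotated start of either was not searched. Of all 32851 windows in the RefSeq table, 3.97% held TGATGNAA and 12.4% held TGACNNNGC, so the C/EBP-ATF core is the rarer of the pair. A match describes letters in this window and does not show that a factor binds there.

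Chac1, the glutathione-degrading enzyme, rose with both hairpins and had the largest change with shRNA2 among the 9 genes. The gene lies on chromosome 2 (119351229 to 119354381 in GRCm38, plus strand). In control replicates 0, 1 and 2 its log2 values were 3.47, 4.10 and 4.19. With shRNA1 they were 5.30, 6.57 and 6.60, and with shRNA2 6.28, 6.90 and 6.75. Every hairpin library lay above every control library, by more than 1 log2 unit at the closest, while the hairpin lines overlapped each other. Chac1 rose by 2.23 on the log2 scale with shRNA1 (SE 0.35, limma adjusted p = 0.00627), or 4.69-fold with a 95% interval of 2.74 to 8.05. With shRNA2 it rose by 2.72 (SE 0.35, adjusted p = 0.00309), or 6.59-fold with an interval of 3.84 to 11.3. In bulk RNA a change in the share of cells that express a gene and a change in RNA per cell cannot be told apart. Between libraries of the same number, Chac1 was higher by 1.82 (replicate 0), 2.47 and 2.40 with shRNA1 and by 2.80, 2.80 and 2.55 with shRNA2. The call held with both hairpins in each fit that left out 1 library, with adjusted p-values up to 0.0294.

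Slc3a2, the heavy chain of system xc-, rose by less but with a narrow spread. Its gene lies on chromosome 19 (8706882 to 8723369, minus strand). The control libraries stood at log2 values of 7.10, 7.22 and 7.25. The shRNA1 libraries stood at 7.65, 7.96 and 8.03, and the shRNA2 libraries at 7.85, 8.21 and 8.02. All 6 hairpin libraries were thus above the 3 controls, and replicate 0 was the lowest of each group. Slc3a2 rose by 0.69 with shRNA1 (SE 0.12, limma adjusted p = 0.00969), or 1.61-fold with a 95% interval of 1.34 to 1.94. It rose by 0.83 with shRNA2 (SE 0.12, adjusted p = 0.00479), or 1.78-fold with an interval of 1.48 to 2.15. Both calls held in each fit that left out 1 library (adjusted p up to 0.0444).

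Slc7a11, the transport chain of system xc-, was higher by an amount close to that of Chac1, but its libraries were so spread that it missed the threshold. The gene lies on chromosome 3 (49892526 to 50443614, minus strand). Its log2 values were 2.74, 3.79 and 3.86 in control replicates 0, 1 and 2. They were 4.06, 6.41 and 6.35 with shRNA1 and 4.76, 6.12 and 6.24 with shRNA2. The groups did not overlap, but shRNA1 replicate 0 lay only just above control replicate 2, and replicates 1 and 2 of each line lay well above their replicate 0. The difference was 2.15 with shRNA1 (SE 0.64, 95% interval 0.69 to 3.60, limma adjusted p = 0.060) and 2.24 with shRNA2 (SE 0.64, interval 0.79 to 3.70, adjusted p = 0.0507). These sizes correspond to 4.43-fold and 4.74-fold. The SE was several times that of Slc3a2, its partner in the transporter.

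The libraries of Slc7a11 split by replicate number. Within each group replicate 0 was below the mean of replicates 1 and 2, by 1.08 log2 units in the control, 2.32 with shRNA1 and 1.43 with shRNA2, whereas replicates 1 and 2 of a group differed by at most 0.12. Between libraries of the same number the hairpin lines were higher by 1.32, 2.63 and 2.49 with shRNA1 and by 2.01, 2.34 and 2.38 with shRNA2. These differences were not set beside those of all genes. With the replicate number as a block in the fit, Slc7a11 passed with shRNA1 (limma adjusted p = 0.000713) and with shRNA2 (adjusted p = 0.000741), at the same size. Without the 3 libraries numbered 0, which leaves 2 libraries per group, it was 2.56 and 2.36 higher (adjusted p = 4.64e-07 and 6.59e-07). Those libraries were left out because they stood apart in these same data, which narrows the spread and lowers the p-values. In that fit 17.6% of all genes passed as higher with shRNA1 (6.92% as reported) and 19.2% with shRNA2 (7.27%). Single libraries also moved the call. Without shRNA1 replicate 0 Slc7a11 passed with shRNA1 (2.92 higher, limma adjusted p = 0.0062) and with shRNA2 (adjusted p = 0.0073). The difference with shRNA2 stayed the same there, and only the spread that the groups share changed. Without shRNA2 replicate 0 Slc7a11 passed with shRNA2 (2.72 higher, adjusted p = 0.0404). Across the fits with 1 library left out the adjusted p ran up to 0.158 with either hairpin. It passed with shRNA2 when only those libraries and the controls were fitted (adjusted p = 0.0172).

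**Figure D1:**
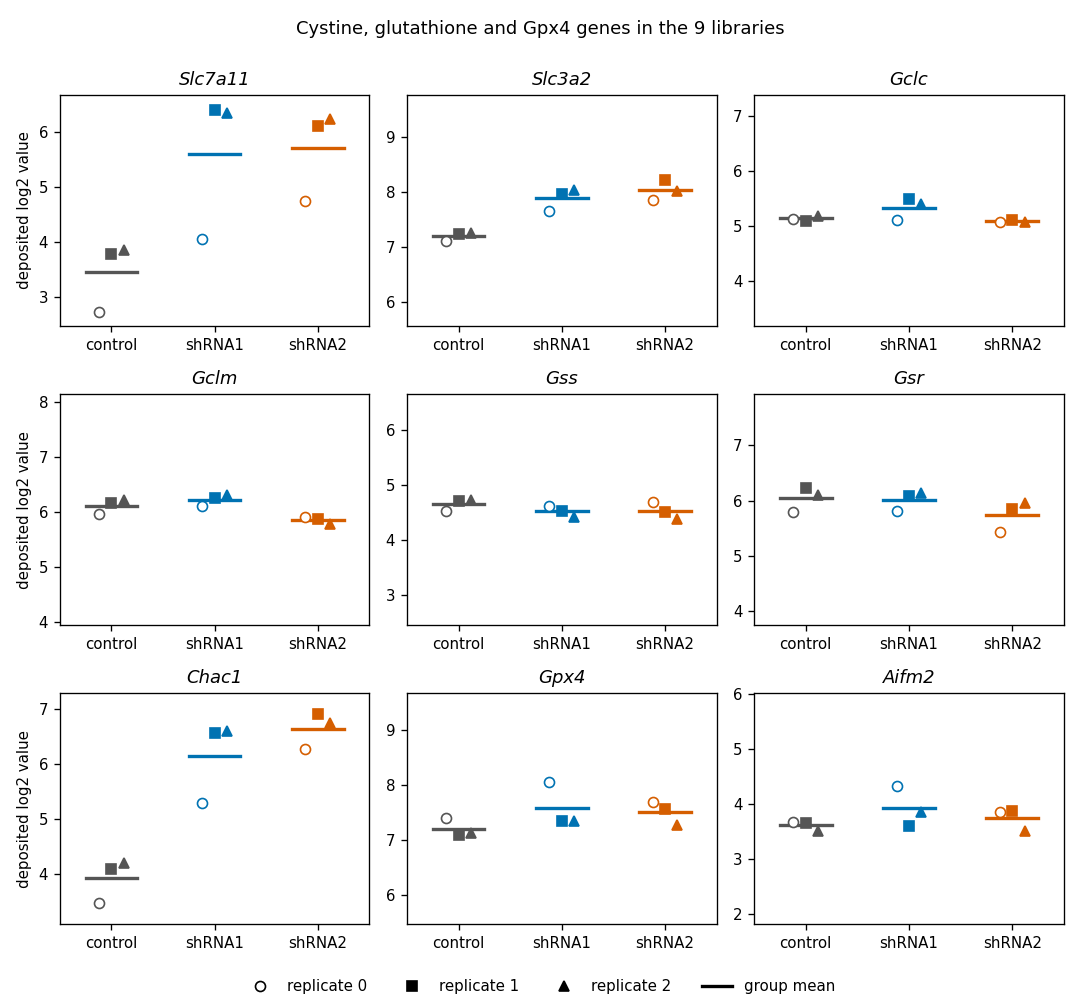
Deposited log2 values of the 9 genes in each library, by group (x axis), with replicate 0 as an open circle, replicate 1 as a square, replicate 2 as a triangle and the group mean as a line; every panel spans the same number of log2 units from its own start. Slc7a11, Chac1 and Slc3a2 lie above the controls in all hairpin libraries, and replicate 0 is the lowest of its group for these 3 genes.

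None of the 3 genes of glutathione synthesis passed the test with either hairpin. Gclc, the catalytic subunit of glutamate-cysteine ligase (chromosome 9, 77754535 to 77794485, plus strand), stood at log2 values of 5.13, 5.09 and 5.19 in the controls, 5.10, 5.49 and 5.39 with shRNA1, and 5.07, 5.11 and 5.06 with shRNA2. Only shRNA1 replicates 1 and 2 were above the control range. Its difference from control was 0.19 with shRNA1 (SE 0.10, limma adjusted p = 0.252) and -0.06 with shRNA2 (SE 0.10, adjusted p = 0.769). Gclc passed with shRNA1 without shRNA1 replicate 0 (0.30 higher, adjusted p = 0.0276) and without the 3 libraries numbered 0 (0.30 higher, adjusted p = 0.015).

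Gclm, the modifier subunit (chromosome 3, 122245557 to 122270732, plus strand), was the synthesis gene with the clearest split between the hairpin lines. Its log2 values were 5.97, 6.16 and 6.23 in the controls, 6.11, 6.26 and 6.31 with shRNA1, and 5.91, 5.88 and 5.79 with shRNA2. All shRNA2 libraries lay below all libraries of the other lines, while shRNA1 and control overlapped. The difference from control was -0.26 with shRNA2 (SE 0.09, limma adjusted p = 0.0938) and 0.11 with shRNA1 (SE 0.09, adjusted p = 0.477). Leaving out shRNA1 replicate 0 kept the difference with shRNA2 at -0.26 and changed only the spread that the groups share. Gclm passed as lower with shRNA2 in that fit (limma adjusted p = 0.0447) and without the libraries numbered 0 (-0.35, adjusted p = 0.00355). Its exons overlap those of a processed pseudogene on the same strand (Gm6061) and of a transcript on the opposite strand (Gm17494), and no strand setting is given, so some reads may belong to those loci.

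Gss, which joins glycine to complete glutathione (chromosome 2, 155563181 to 155592810, minus strand), ranged from 4.37 to 4.72 on the log2 scale over all 9 libraries. Every group overlapped the others. Its differences from control were -0.13 with shRNA1 (SE 0.11, limma adjusted p = 0.477) and -0.12 with shRNA2 (SE 0.11, adjusted p = 0.488), and it passed as lower with shRNA2 without the libraries numbered 0 (-0.27, adjusted p = 0.0385). Its exons overlap those of Acss2 and of antisense genes on the opposite strand.

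Gsr, which regenerates reduced glutathione (chromosome 8, 33652523 to 33698163, plus strand), showed the same replicate pattern as Slc7a11 in a smaller size. Its log2 values were 5.79, 6.24 and 6.09 in the controls, 5.81, 6.09 and 6.13 with shRNA1, and 5.43, 5.85 and 5.95 with shRNA2, with replicate 0 lowest in each group. The differences from control were -0.03 with shRNA1 (SE 0.16, limma adjusted p = 0.921) and -0.29 with shRNA2 (SE 0.16, adjusted p = 0.266). Between libraries of the same number Gsr differed by -0.35, -0.39 and -0.14 with shRNA2, values not set beside those of all genes. It passed as lower with shRNA2 when the replicate number was a block (adjusted p = 0.0252) and without the libraries numbered 0 (-0.26, adjusted p = 0.0212).

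Gpx4, the phospholipid peroxidase (chromosome 10, 80047166 to 80056439, plus strand), did not pass with either hairpin. Its log2 values were 7.39, 7.08 and 7.13 in the controls, 8.05, 7.34 and 7.34 with shRNA1, and 7.69, 7.55 and 7.27 with shRNA2. Here replicate 0 was the highest library of each group, opposite to Slc7a11, and control replicate 0 exceeded several hairpin libraries. The difference was 0.38 with shRNA1 (SE 0.19, 95% interval -0.06 to 0.81, limma adjusted p = 0.237) and 0.30 with shRNA2 (SE 0.19, interval -0.13 to 0.74, adjusted p = 0.338). Between libraries of the same number Gpx4 was higher by 0.14 to 0.66. Both hairpins were set against the same control libraries, and such differences were not set beside those of all genes. With the replicate block it passed with shRNA1 (adjusted p = 0.0367) and not with shRNA2 (adjusted p = 0.0749), and without the libraries numbered 0 it passed with shRNA2 (0.30 higher, adjusted p = 0.0239). GENCODE M21 names 1 Gpx4 pseudogene, which could share reads with the gene.

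Aifm2, the coenzyme Q reductase that acts beside Gpx4 (chromosome 10, 61715263 to 61739260, plus strand), stood at log2 values of 3.68, 3.66 and 3.50 in the controls, 4.32, 3.59 and 3.85 with shRNA1, and 3.84, 3.86 and 3.50 with shRNA2. The groups overlapped, and the highest value belonged to shRNA1 replicate 0. The difference was 0.31 with shRNA1 (SE 0.18, limma adjusted p = 0.300) and 0.12 with shRNA2 (SE 0.18, adjusted p = 0.710). Aifm2 passed in no fit that tested it. Its level was among the lowest 25% of genes, so the low-level filter removed it. Its exons overlap those of H2afy2 on the opposite strand.

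In all, 2 of the 9 genes, Chac1 and Slc3a2, passed as higher with shRNA1, where 6.92% of all genes did, and the same 2 passed with shRNA2, where 7.27% did. These 2 passed with both hairpins, against 4.54% of all genes. None of the 9 passed as lower with shRNA1 (5.49% of all genes did), with shRNA2 (5.67%) or with both hairpins (3.01%). At an unadjusted p under 0.05, 0 of the 9 were lower with shRNA1 and 1 with shRNA2. The share of all genes at that looser threshold was not counted. The authors' deposited table also called 2 of the 9 as higher and 0 as lower with each hairpin, and lists Slc7a11 at adjusted p-values of 0.119 and 0.101. With shRNA1, 3 of the 9 genes had all libraries above the controls (17.3% of all genes) and 0 all below (16.6%). With shRNA2, 3 lay above (20.1%) and 1, Gclm, below (18.7%). The median difference of the 9 genes was 0.31 with shRNA1 and 0.12 with shRNA2, beside medians of 0.00 over all genes. Each of these medians of 9 genes is the value of a single gene, Aifm2, which did not pass. Both comparisons use the same control libraries, and the 9 genes were chosen with earlier results of these data known. With the replicate block, more genes passed in the whole table as well: 4 of the 9 passed as higher with shRNA1 (13.4% of all genes), 3 as higher (13.4%) and 1 as lower (10.6%) with shRNA2, and 3 as higher with both (9.17%). Without shRNA1 replicate 0, 4 passed as higher with shRNA1 (7.95% of all genes), and 3 as higher (12.5%) and 1 as lower (10.3%) with shRNA2. Without the 3 libraries numbered 0, 4 passed as higher with shRNA1 (17.6% of all genes), and 4 as higher (19.2%) and 3 as lower (18.1%) with shRNA2.

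**Figure D2:**
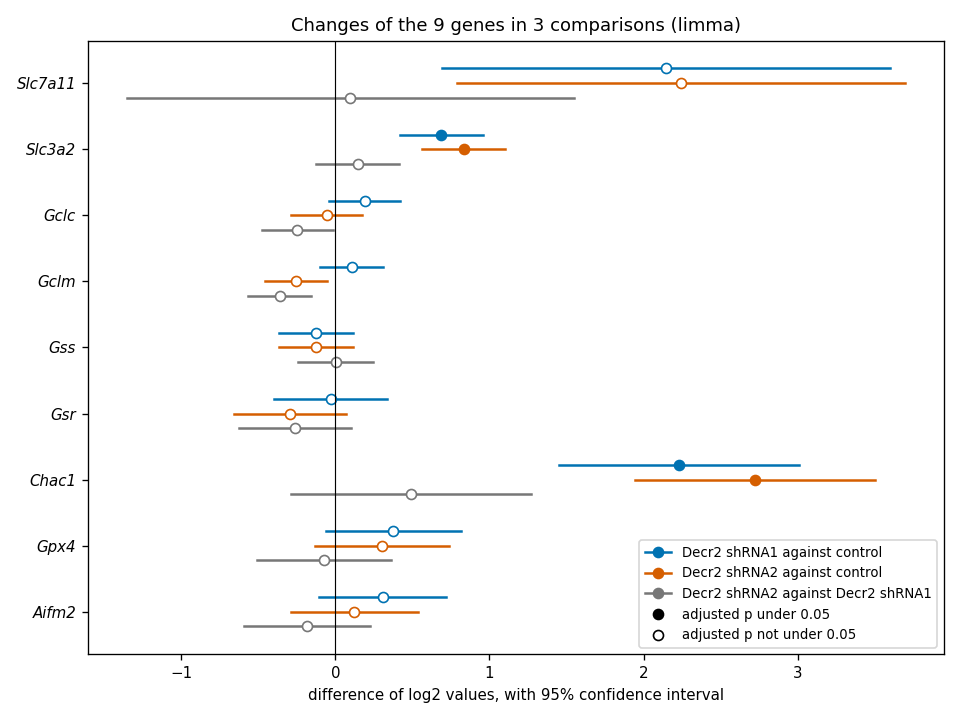
Difference of log2 values (x axis) of each gene in the 3 comparisons, with 95% confidence intervals as lines; filled points have a limma adjusted p under 0.05 and open points do not. Chac1 and Slc3a2 have filled points with both hairpins, and the intervals of Slc7a11 are the widest.

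The lines with Decr2 shRNA2 and Decr2 shRNA1 differ in how far Decr2 fell, and the difference between them was tested directly. None of the 9 genes passed (limma, 0 higher and 0 lower). Of all genes, 0.223% passed as higher with shRNA2 and 0.232% as lower. At an unadjusted p under 0.05, 0 of the 9 were higher and 2 lower. The share of all genes at that looser threshold was not counted, so these 2 have no background beside them. Chac1 was 0.49 higher with shRNA2 (95% interval -0.29 to 1.27, adjusted p = 0.740) and Slc3a2 0.14 higher (interval -0.12 to 0.41, adjusted p = 0.790). Slc7a11 differed by 0.10 with an interval of -1.35 to 1.55, which holds differences of more than 1 log2 unit in either direction. The 2 genes with an unadjusted p under 0.05 were the subunits of glutamate-cysteine ligase. Gclm was at -0.36 (interval -0.56 to -0.16, adjusted p = 0.172) and Gclc at -0.25 (interval -0.48 to -0.02, adjusted p = 0.453). Gclm was the 1 gene of the 9 whose shRNA2 libraries all lay below those of shRNA1 (6.68% of all genes did), and none had all of them above (7.72%). Without the libraries numbered 0, Gclm (-0.45, adjusted p = 0.00554) and Gclc (-0.36, adjusted p = 0.0232) passed as lower with shRNA2, as did 4.95% of all genes. Gpx4 at -0.07 (interval -0.51 to 0.36), Aifm2 at -0.18 (interval -0.60 to 0.23), Gsr at -0.26 (interval -0.63 to 0.10) and Gss at 0.00 (interval -0.24 to 0.24) did not pass, with adjusted p-values of 0.686 or more.

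The gap between replicate 0 and the other replicates differed in direction among the 9 genes. In 5 of them (Slc7a11, Slc3a2, Gclc, Gsr and Chac1) replicate 0 was below the mean of replicates 1 and 2 in every group. In 2 of them (Gpx4 and Aifm2) it was above that mean in every group, and in the other 2 (Gclm and Gss) the sign varied. How many of all genes kept the same sign in every group was not counted, so these counts do not set the 9 genes apart. For Chac1 the gap was -0.67 in the control, -1.28 with shRNA1 and -0.55 with shRNA2, and for Gpx4 it was 0.28, 0.71 and 0.28. The gap was widest in the shRNA1 line for Slc7a11, Chac1, Slc3a2, Gclc, Gpx4 and Aifm2. The labels do not say what the replicate number stands for, and its part in the hairpin differences was not tested beyond the block and the fits without these libraries.

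**Figure D3:**
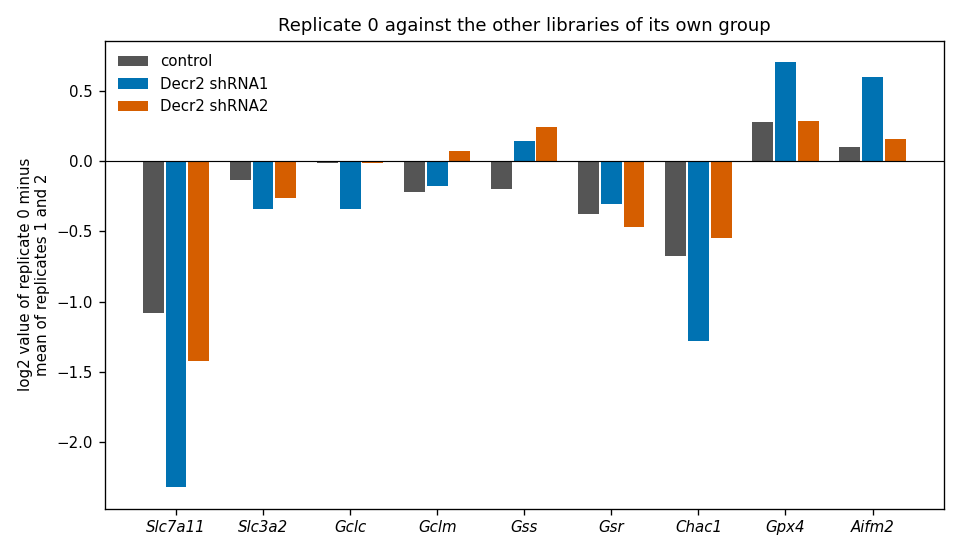
Log2 value of replicate 0 minus the mean of replicates 1 and 2 of the same group (y axis) for each gene, with a bar for each group. The bars of Slc7a11 reach from -1.08 to -2.32, those of Gpx4 and Aifm2 lie above 0.

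**Figure D4:**
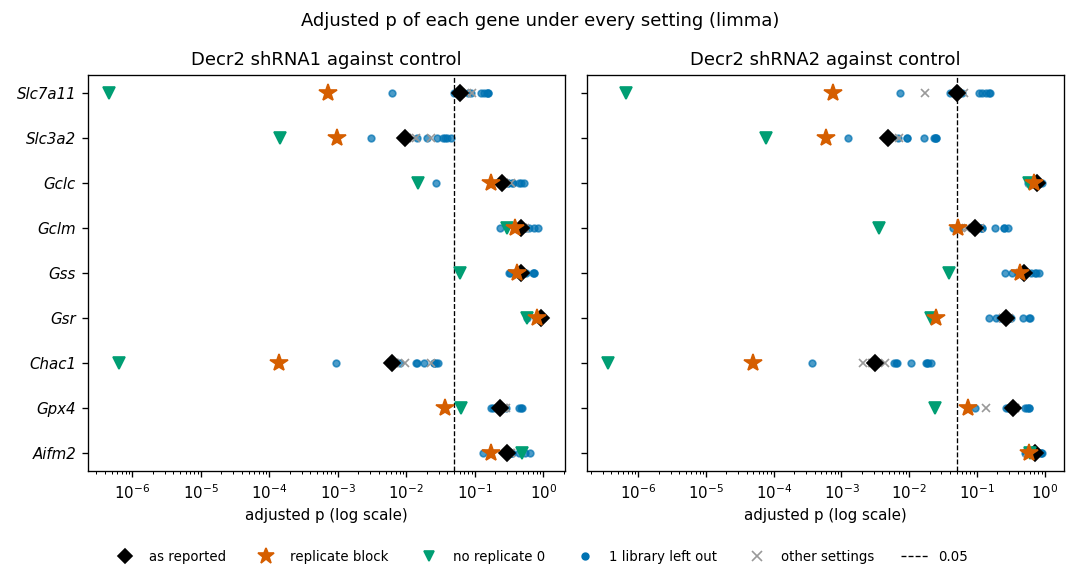
Adjusted p (x axis, log scale) of each gene against control with shRNA1 (left) and shRNA2 (right) in the fit as reported and in the 17 other fits. The dashed line is 0.05, and Aifm2 has no point for the low-level filter, which removed it. Chac1 and Slc3a2 lie left of the line in every fit, and Slc7a11 lies close to it as reported and far to the left with the replicate block and without the libraries numbered 0.

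Of 39 listed genes that use or turn over glutathione, 34 were in the table. With both hairpins 3 rose (4.54% of all genes did) and 1 fell (3.01%). With shRNA1 5 rose (6.92% of all genes) and 1 fell (5.49%), and with shRNA2 4 rose (7.27%) and 2 fell (5.67%). The counts that rose and those that fell are too small to set the list apart. Gstt1, Gstm2 and Gstz1, glutathione transferases, rose by 0.86, 0.48 and 0.39 with shRNA1 and by 1.03, 0.44 and 0.43 with shRNA2. Gsto1, an omega class transferase with thiol transferase activity, fell by 0.49 and 0.55 (limma, larger adjusted p of these 4 genes between 0.028 and 0.0476). Gstm2 belongs to a cluster of close paralogs whose reads can be shared. The median of the list was 0.18 with shRNA1 and 0.10 with shRNA2, beside 0.00 over all genes. With the replicate block 12 of the 34 were called with both hairpins, where 9.17% of all genes were called as higher and 6.24% as lower. None was called with both when control replicate 1 or 2, shRNA1 replicate 2, or shRNA2 replicate 1 or 2 was left out, or when only the groups compared were fitted, 1 was without control replicate 0, and 2 were without shRNA1 replicate 1 or shRNA2 replicate 0.

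The methionine cycle and transsulfuration supply cysteine from within the cell. Of 16 listed genes 12 were in the table, and 1 rose and 1 fell with both hairpins, beside 4.54% and 3.01% of all genes, counts too small to set the list apart. Cth, the lyase that releases cysteine from cystathionine, rose by 1.91 with shRNA1 (SE 0.35, limma adjusted p = 0.0116) and 1.96 with shRNA2 (SE 0.35, adjusted p = 0.0104). Mtap, which salvages methionine, fell by 0.67 (SE 0.06, adjusted p = 0.000859) and 0.60 (SE 0.06, adjusted p = 0.00124). Both kept their calls with both hairpins in each fit that left out 1 library. The medians of the list were 0.10 and 0.06, and without shRNA1 replicate 0 the number called with both hairpins was 4.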

How the data were processed

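Messenger RNA of 9 libraries was analysed from 1 table. The authors deposited 1 log2 value per gene and library, together with their own comparisons, which per the file headers hold log2 fold changes, t scores from limma's moderated test and p-values; the deposited t scores and p-values were used only to describe their table. Of tools, kallisto, FastQC and limma appear in the submitters' processing notes. Build, annotation, strand setting and any low-gene filter: not given in the sources used here. Taken back from log2 to the linear scale, the deposited values summed to between 969464 and 1045849 per library; depth is unknown, so precision is given by the spread between libraries.

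The column codes mark the control and the replicate number but do not spell out the hairpin. It was read from the comparisons the authors headed in the same table: the fold changes headed shRNA1 lay within 0.05 of the columns assigned to shRNA1 in 99.95% of genes, and those headed shRNA2 lay that close to the columns of shRNA2 in 99.7%. If those headings were exchanged, the hairpin names here would be too. Symbols were matched by Ensembl identifier for 10759 of 10762 genes. Coordinates are those of GENCODE M21 (GRCm38) and sequences those of RefSeq (GRCm38.p6), which may differ from the authors' build.

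The deposited values of all genes went into 1 limma fit (version 3.58.1, R 4.3.3) with group means, an intensity trend in the variance prior and all 9 libraries, with Benjamini-Hochberg adjustment across the whole table. A gene passed at an adjusted p under 0.05. The fit was tested on simulated data with independent libraries and no replicate shift, which cannot show how it behaves with the replicate shift of these data. Errors are standard errors (SE) and intervals are 95% confidence intervals. Alternatives were a replicate block, each library left out, the libraries numbered 0 left out, a low-level filter, a pseudocount, centred libraries, only the groups compared and other variance priors. Libraries of the same number deviated together from their group means (correlations across genes from 0.126 to 0.644 in all 9 pairs). Libraries of unlike number were not compared, and deviations sum to 0 within a group. A shift shared by the libraries numbered 0 would thus give positive correlations for the other numbers as well. These values do not show that replicates 1 and 2 are paired across groups, and the labels do not say so. The 9 genes and the other lists were chosen with earlier results of these data known. All 9 genes are named; from each list up to 4 genes called with both hairpins are named by adjusted p (1 such gene is not reported here), and for Slc7a11, Chac1 and Gpx4 the 4 genes with the highest correlation, among genes above the median level.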

Additional observations from a re-analysis of the deposited data

How the results depend on the processing

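Chac1 and Slc3a2 kept their direction and their calls with both hairpins in all 17 other fits. The call of Slc7a11 depended on the fit: it passed with both hairpins with the replicate block and without the libraries numbered 0, and also without shRNA1 replicate 0 alone. With the replicate block, the members called higher with shRNA1 were 4 and those called lower with shRNA2 were 1, and it changed no other call of a named gene than those of Slc7a11, of Gpx4 with shRNA1 and of Gsr with shRNA2. It called 12 of 34 genes of glutathione use, 4 of 17 selenoproteins and 4 of 26 genes of coenzyme Q and related defence with both hairpins. In the same fit 9.17% of all genes passed as higher with both and 6.24% as lower. Of all genes the block called 2646 with shRNA1 (1336 as reported), 2583 with shRNA2 (1392), 201 between the lines (49) and 1659 with both hairpins (813). Without the libraries numbered 0, members called higher were 4 with each hairpin, and those lower were 3 with shRNA2 and 2 between the lines. Calls with both hairpins were then 13 of 34 for glutathione use, 6 of 12 for transsulfuration and 2 of 12 for selenoprotein synthesis. They were 7 of 17 for selenoproteins and 6 of 26 for coenzyme Q. Of all genes, 12.6% passed as higher with both in that fit and 11.1% as lower. All genes gave 3711 calls with shRNA1, 4011 with shRNA2, 955 between the lines and 2547 with both. With the lowest 25% of genes removed, 0 selenoprotein synthesis factors and 1 coenzyme Q gene were called with both hairpins, where all genes gave 592. The robust prior also called 1 coenzyme Q gene, where all genes gave 796. With only the groups compared, 0 glutathione use genes and 1 coenzyme Q gene were called, and all genes gave 675 with shRNA1, 6 between the lines and 480 with both.

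With 1 library left out, members called higher ran from 2 to 4 with shRNA1, from 2 to 3 with shRNA2 and from 2 to 3 with both; members called lower ran from 0 to 1 with shRNA2 and stayed at 0 with shRNA1, with both and between the lines, as did those higher between the lines. Calls with both hairpins ran from 0 to 5 of 34 for glutathione use, 2 to 4 of 12 for transsulfuration and 0 to 2 of 12 for selenoprotein synthesis. They ran from 0 to 3 of 17 for selenoproteins and 0 to 4 of 26 for coenzyme Q. Of all 10762 genes, calls ran from 328 to 1579 with shRNA1, 406 to 2450 with shRNA2, 3 to 94 between the lines and 188 to 1062 with both. Where a library is left out, its group keeps 2 and is assumed to vary like the others. The groups share an estimate of the spread, so a call can also change when the library left out is in neither group compared.

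Signs changed only among differences that never passed. Gsr with shRNA1 ran from -0.156 to 0.0701 over the fits with 1 library left out. Between the lines, over the same fits, Slc7a11 ran from -0.68 to 0.57, Gss from -0.0793 to 0.0756, Gpx4 from -0.19 to 0.16 and Aifm2 from -0.349 to 0.0148. Without the libraries numbered 0 these were -0.20 for Slc7a11, -0.0303 for Gss and 0.0685 for Gpx4, and with centred libraries Gss was at -0.00054. The cause of these changes was not tested. Unknown depth leaves the counting error of low genes such as Aifm2 unmeasured.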

Other observations

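Selenium genes and genes of other lipid radical defence were described by the same counts. Of 12 selenoprotein synthesis factors, all in the table, 1 rose and 0 fell with both hairpins, where 4.54% of all genes rose and 3.01% fell: Trit1, a transfer RNA modifying enzyme, was 0.60 higher with shRNA1 (limma adjusted p = 0.0197) and 0.56 with shRNA2 (adjusted p = 0.0234). Of 19 selenoproteins other than Gpx4, 17 were in the table and 1 rose with both hairpins, which is near the share over all genes; Selenow, a small redox protein, rose by 0.66 with shRNA1 (adjusted p = 0.00911) and 0.43 with shRNA2 (adjusted p = 0.0392), and none fell with both. Trit1 lost its call with both hairpins without control replicate 1 or 2, with shRNA1 also without shRNA1 replicate 2, and with shRNA2 also without shRNA2 replicate 1 or 2 (adjusted p up to 0.0926). Selenow kept its call with shRNA1 in each fit that left out 1 library, but with shRNA2 it kept it only without shRNA1 replicate 0 or shRNA2 replicate 0 (adjusted p up to 0.135). Medians of both lists rounded to 0.01 or to 0.00 with either hairpin.

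Of 27 genes of coenzyme Q, tetrahydrobiopterin and other lipid radical defence, 26 were in the table, 0 rose and 2 fell with both hairpins, beside 4.54% and 3.01% of all genes. Pdss2, which helps build the coenzyme Q side chain, fell by 0.44 with shRNA1 (limma adjusted p = 0.0437) and fell by 0.42 with shRNA2 (adjusted p = 0.0497). Pdss2 kept its call in only 2 of the 9 fits that left out 1 library with shRNA1 (without shRNA1 replicate 1 or shRNA2 replicate 0) and 1 of 9 with shRNA2 (without shRNA1 replicate 0). The list medians were 0.00 and -0.05.

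The genes most like 3 members over the 9 libraries were found by Pearson correlation, given here as a description over libraries that share groups and replicate numbers. For Chac1 they were Atf4 (r = 0.992, rho = 0.983), Slc3a2 (r = 0.991, rho = 0.983), Trib3 (r = 0.991, rho = 0.933) and Arl6ip5 (r = 0.990, rho = 0.900). For Slc7a11 they were Clic4 (r = 0.994, rho = 0.967), Mthfd2 (r = 0.993, rho = 0.833), Maml1 (r = 0.989, rho = 0.967) and Atxn2l (r = 0.987, rho = 0.950). For Gpx4 they were Oaz1 (r = 0.985, rho = 0.933), Tmem50a (r = 0.979, rho = 0.950), Ndufa7 (r = 0.979, rho = 0.950) and Tmem259 (r = 0.972, rho = 0.950). The 2 ferroptosis defence enzymes Gpx4 and Aifm2 also ran together (r = 0.895, rho = 0.817), while Gpx4 and Slc7a11 did not (r = -0.03, rho = 0.07). In every group replicate 0 was above the mean of replicates 1 and 2 for Gpx4 and Aifm2 and below it for Slc7a11. These correlations include that gap as well as the hairpin differences.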
